A study of Mus musculus with 11 samples.

Results

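The lipid phosphate phosphatases and their PLPPR relatives were followed as 8 genes in primary mouse hippocampal cultures: the enzymes Plpp1, Plpp2 and Plpp3, and the neuronal proteins Plppr1, Plppr2, Plppr3, Plppr4 and Plppr5. They are 8 of the 48709 genes listed in the count tables, found by their Ensembl identifiers, and all 8 passed the filter on low counts (5 or more counts in 50% or more of the libraries), as did 17365 genes in all. The family was chosen from values of the same comparison that is described here, in which an earlier analysis had Plpp3 lower in mimic-treated cultures. The fold changes and calls of the 8 genes are therefore given as a description, without p-values.

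The cultures came from hippocampi of embryonic day 17 CD1 mouse embryos. Hippocampi of several embryos were pooled per preparation, as the study's methods describe. Lipid nanoparticles were added on day 10 in vitro together with apolipoprotein E4, and RNA was taken 48 h later, on day 12 in vitro. In 5 samples the particles carried a mimic, a synthetic copy of the microRNA miR-181a-5p, and in 6 samples they carried a negative control oligonucleotide, so both groups received particles and apolipoprotein. The labels do not say whether the samples of a group were separate cultures, and the spread between samples may therefore be partly technical. The comparison asks how raising miR-181a-5p changes RNA levels in these cultures.

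PLPP enzymes sit in the plasma membrane and remove the phosphate from lipids such as lysophosphatidic acid (LPA) and sphingosine-1-phosphate (S1P), which act as extracellular signals through their own receptors. The PLPPR proteins, also called plasticity-related genes, share the membrane topology of these enzymes but lack residues that the enzymes need for catalysis. They are mainly known from neurons, where Plppr4 (PRG-1) lies at excitatory synapses and limits the action of LPA on glutamate release, and where other members shape filopodia, axons and dendrites. In brain, Plpp3 is best known from astrocytes and other glia and from blood vessels.

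The 2 oligonucleotides that define the groups are shown first, since a microRNA pairs with messenger RNAs through its seed, bases 2 to 8, printed in capitals. The mimic is identical to mature mouse miR-181a-5p of RefSeq (GRCm38.p6), which is encoded on the plus strand by both Mir181a-1 (chr1:137966468-137966490) and Mir181a-2 (chr2:38852741-38852763).
miR-181a-5p mimic: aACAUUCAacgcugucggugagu
negative control oligonucleotide: uCACCGGGuguaaaucagcuug

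The DNA letters opposite the mimic seed are TGAATGT. Among the longest annotated 3' UTRs of the 8 genes (GRCm38, GENCODE M21), this 7-base match occurred once each in Plppr4 and Plppr5, and no gene held it followed by A. Plpp3 held no 7-base match but 1 match of 6 bases (GAATGT, bases 2 to 7) that is followed by A, at position 75 of its 1742-base 3' UTR. Plppr4 held a second, 6-base match. The windows around these sites are shown in the sense of the messenger RNA, with the matched bases in capitals, because they are the places where the added oligonucleotide could pair.
Plpp3, 6 bases then A, chr4:105231084-105231107, plus strand: tcatcagacagtaGAATGTaggga
Plppr4, 7 bases, chr3:117321525-117321549, minus strand: gtatttaactttcTGAATGTgccaa
Plppr4, 6 bases, chr3:117321008-117321031, minus strand: tgaaagcttgtagGAATGTtttca
Plppr5, 7 bases, chr3:117688044-117688068, plus strand: acattctagtgtcTGAATGTgaggc

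Plpp1, Plpp2, Plppr1, Plppr2 and Plppr3 had none of these letters in the window searched. Such matches are common. Of the 14489 tested genes with an annotated 3' UTR, 18.5% held the 7-base match, 36.6% the 6-base match and 12.8% the 6-base match followed by A. The latter pattern was looked for after the sequences had been seen. Among genes with a 3' UTR within 20% of the same length, 13.7% held the 6-base match followed by A for Plpp3, and the 7-base match was held by 29.9% for Plppr4 and 30.7% for Plppr5. Plpp3 and Plppr4 are on the list of predicted miR-181a-5p targets that accompanied the study, under the older names Ppap2b and D3Bwg0562e. The paper took its predicted targets from TargetScan, and whether the list is independent of the matches above was not tested. The share of all tested genes on it is not given here. The 7-base match of the negative control (CCCGGTG) was in none of the 8 genes, and its 6-base match (CCGGTG) was in Plppr2 alone. A match describes the sequence and is not a measured site of binding.

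Total counts lay between 17287168 and 48091231 per sample, with control replicate 1 the deepest and control replicate 4 next at 28934923. Levels are given as CPM, read counts relative to library size, scaled by TMM, a method that sets library sizes from the bulk of the genes. Over all 17365 genes, the quasi-likelihood test of edgeR called 307 lower and 188 higher in mimic at a Benjamini-Hochberg adjusted p under 0.05, and the median log2 fold change was -0.00015. A gene is called below when it passes that test.

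Across the family, 1 of 8 genes was called lower in mimic (Plpp3) and 1 of 8 called higher (Plppr1), beside 1.77% and 1.08% of all genes tested. Since the family was chosen on this contrast, nothing is read from these counts. Of the 8 genes, 5 had a negative and 3 a positive fold change, and the median was -0.01 on the log2 scale. The 95% interval lay off 0 for 3 genes (Plpp3, Plppr1 and Plppr3) and included 0 for the other 5.

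Among the enzymes, Plpp3 was the only one called. Plpp3 (ENSMUSG00000028517, chr4:105157347-105232764, plus strand) was measured at 169.3, 164.0, 164.4, 162.6, 160.1 and 172.6 CPM in control replicates 1 to 6. It was measured at 142.9, 143.6, 148.7, 150.8 and 145.3 CPM in mimic replicates 1 to 5. Every mimic sample lay below every control sample, an arrangement found in 1.73% of all genes tested (the opposite one in 1.16%). The mean went from 165.5 ± 4.60 (SD, n = 6) to 146.3 ± 3.38 (SD, n = 5). The log2 fold change was -0.18 with a standard error of 0.026 and a 95% interval of -0.23 to -0.13, a level 11.7% lower. In all 19 alternative fits Plpp3 was called lower, with values between -0.19 and -0.16.

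**Figure D1:**
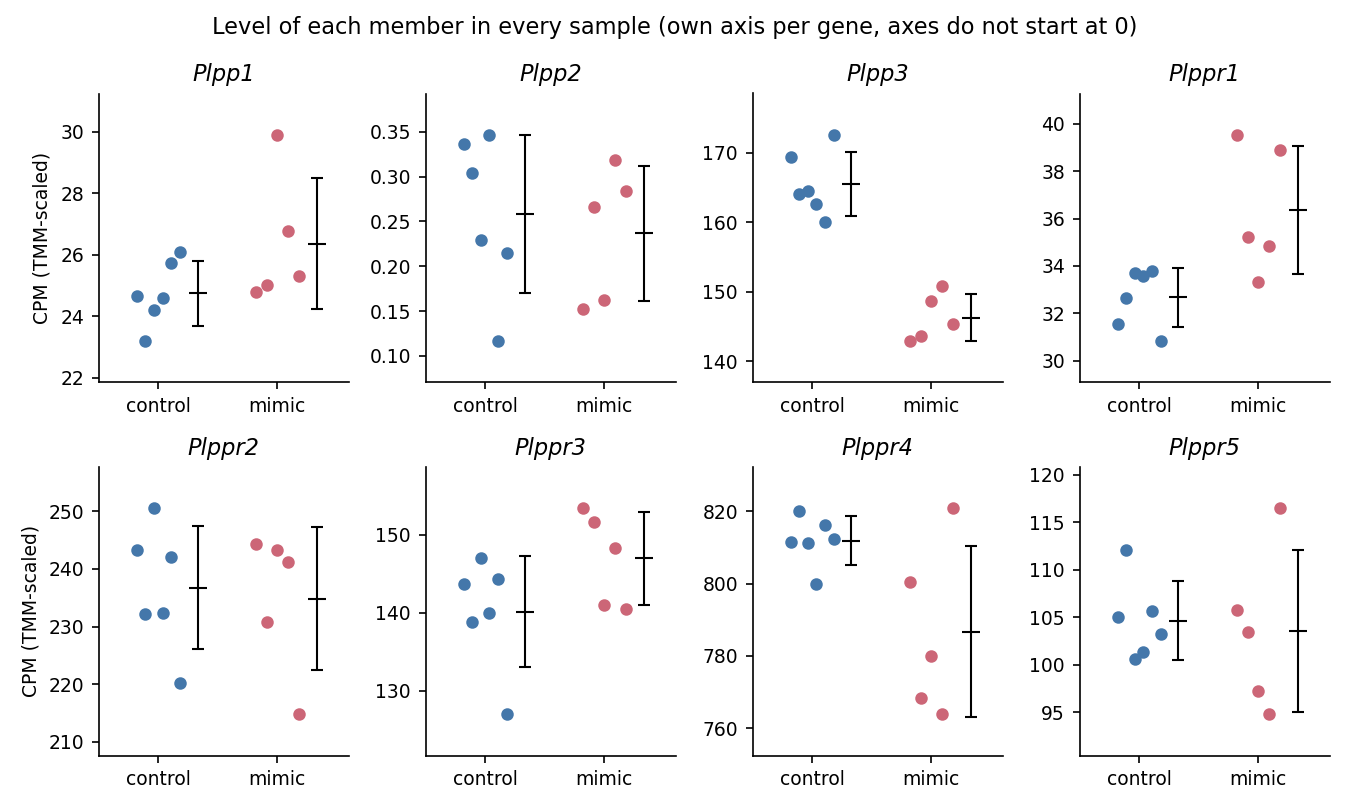
Level of each of the 8 genes in every sample, in TMM-scaled CPM on an axis of its own for each gene. Blue points are the 6 control samples and red points the 5 mimic samples, and the black bar gives the mean and SD. The groups are separate for Plpp3 and overlap for the other 7 genes.

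Plpp1, a widely expressed phosphatase of LPA and related lipids (ENSMUSG00000021759, chr13:112800792-112867894, plus strand), went in the other direction without being called. Its control samples ran from 23.2 to 26.1 CPM with a median of 24.6, and its mimic samples were at 24.8, 25.0, 29.9, 26.8 and 25.3 CPM. All 5 mimic samples lay above the control median, but only 2 lay above the highest control sample. Its log2 fold change was 0.09 (standard error 0.047, 95% interval -0.01 to 0.19). Exons of Plpp1 share 452 bp, 25.8% of its exon length, with exons of Mtrex on the opposite strand, and since strand-specific counting was not stated, reads from there cannot be assigned with certainty.

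Plpp2, the enzyme of the trio with the fewest reads (ENSMUSG00000052151, chr10:79526430-79533796, minus strand), had 16, 7, 5, 10, 2 and 5 counts in control replicates 1 to 6 and 3, 7, 3, 8 and 6 counts in mimic replicates 1 to 5. Counts this low are close to the limit of 3 counts that a count of 0 allows, and the interval of the log2 fold change ran from -0.86 to 0.49. A change of Plpp2 smaller than that was not detectable at this depth.

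Of the PLPPR proteins, Plppr1 had the largest fold change. Plppr1 (PRG-3, a promoter of neurite and filopodium growth, ENSMUSG00000063446, chr4:49059273-49340259, plus strand) was at 31.5, 32.6, 33.7, 33.6, 33.8 and 30.8 CPM in control replicates 1 to 6. The mimic replicates 1 to 5 were at 39.5, 35.2, 33.3, 34.9 and 38.9 CPM. Mimic replicates 1 and 5 stood above the rest, mimic replicate 3 lay within the control range, and 4 of 5 mimic samples exceeded the highest control sample. The mean went from 32.7 ± 1.25 (SD, n = 6) to 36.4 ± 2.71 (SD, n = 5), a log2 fold change of 0.16 (standard error 0.043, 95% interval 0.07 to 0.25) or a level 11.4% higher. The call was close to the threshold. Plppr1 was called in 6 of 19 alternative fits, and in the other 13 it kept its direction and was not called, among them 9 of the 11 fits that left out 1 sample.

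Plppr3 (PRG-2, an axonal protein, ENSMUSG00000035835, chr10:79860475-79874634, minus strand) had a smaller positive value. It was at 143.7, 138.8, 147.1, 140.0, 144.4 and 127.0 CPM in control replicates 1 to 6 and at 153.4, 151.6, 141.1, 148.3 and 140.4 CPM in mimic replicates 1 to 5. In 3 mimic samples it exceeded the highest control sample, and the other mimic samples lay within the control range. The log2 fold change was 0.07 (standard error 0.033, 95% interval 0.00078 to 0.14), and the gene was not called. Its exons share 251 bp with Ptbp1 and 159 bp with Prtn3 on the opposite strand, 5.76% and 3.65% of its exon length.

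Plppr4, the synaptic member and the one with the 7-base and the 6-base seed match (ENSMUSG00000044667, chr3:117319139-117360876, minus strand), was at 811.4, 820.1, 811.3, 799.9, 816.2 and 812.3 CPM in control replicates 1 to 6. It was at 800.4, 768.5, 780.0, 763.8 and 820.9 CPM in mimic replicates 1 to 5. The control samples were tightly grouped, with a coefficient of variation of 0.838%, against 3.02% in mimic. In mimic, 3 samples fell under the lowest control sample and 1 stood above the highest. The log2 fold change was -0.05 (standard error 0.023, 95% interval -0.09 to 0.0011), a level 3.10% lower, and the gene was not called.

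Plppr5 (PRG-5, a protein of dendritic filopodia and spines, ENSMUSG00000033342, chr3:117574836-117689507, plus strand) also holds a 7-base seed match. It was at 105.0, 112.1, 100.7, 101.4, 105.6 and 103.2 CPM in control replicates 1 to 6 and at 105.8, 103.4, 97.3, 94.8 and 116.5 CPM in mimic replicates 1 to 5. The mimic samples reached both below and above the control range. The log2 fold change was -0.02 (95% interval -0.10 to 0.07), and its sign turned when control replicate 2, mimic replicate 3 or mimic replicate 4 was left out (0.011, 0.010 and 0.019).

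Plppr2 (PRG-4, ENSMUSG00000040563, chr9:21937033-21948907, plus strand) differed least. Its control samples ran from 220.2 to 250.6 CPM with a mean of 236.8 ± 10.7 (SD, n = 6), and its mimic samples were at 244.3, 230.8, 243.3, 241.2 and 214.7 CPM. The log2 fold change was -0.01 (95% interval -0.08 to 0.06), and its sign turned without control replicate 3 (0.0044) or mimic replicate 5 (0.021).

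**Figure D2:**
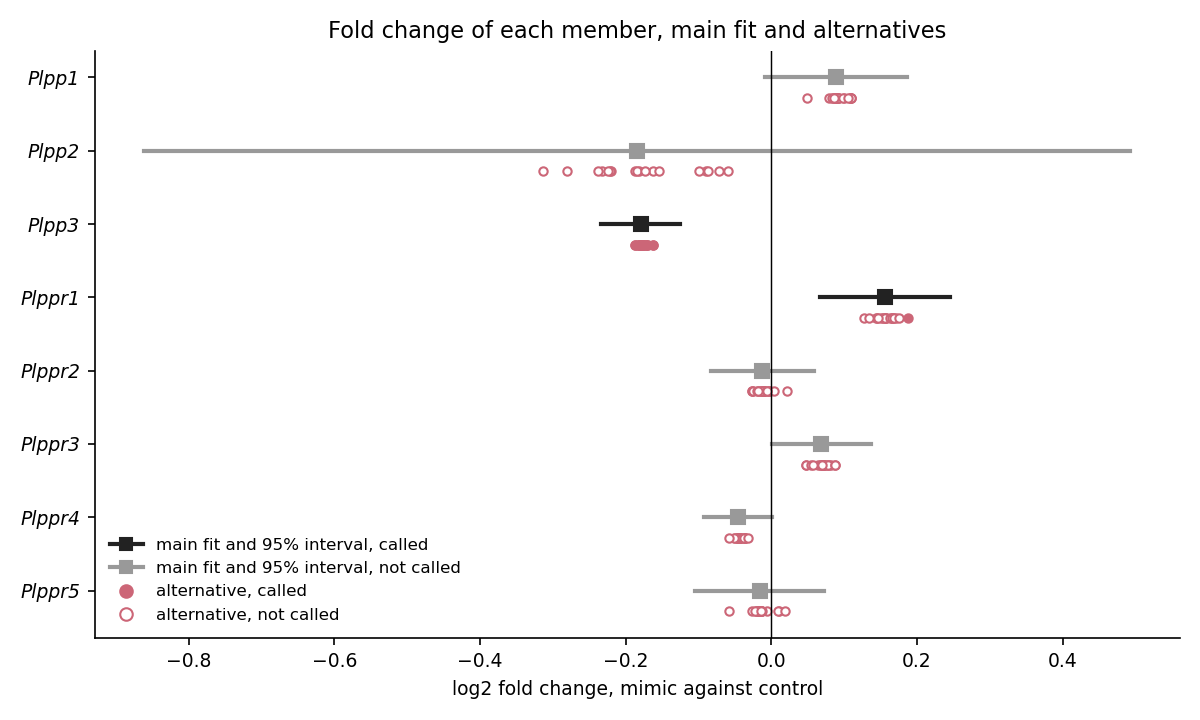
Log2 fold change of each of the 8 genes, mimic against control. Squares and bars are the main fit with its 95% interval, black where the gene was called and grey where it was not, and the points under each bar are the alternative fits, filled where called and open where not. Plpp3 stays between -0.19 and -0.16 with every point filled, while most points of Plppr1, between 0.13 and 0.19, are open, and the interval of Plpp2 is the widest.

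Levels of different genes were compared per kilobase of merged exon. In control cultures Plppr4 came first at 113.6 ± 0.952 CPM per kb (SD, n = 6), followed by Plppr2 at 86.1 ± 3.89, Plpp3 at 52.4 ± 1.46, Plppr3 at 32.2 ± 1.63 and Plppr5 at 22.3 ± 0.877. Plpp1 at 14.1 ± 0.602, Plppr1 at 4.50 ± 0.172 and Plpp2 at 0.156 ± 0.053 CPM per kb came last. No neighbours in this order overlapped in any sample of the control group, and the order was the same in the mimic group, again without overlap. Among the 17312 tested genes with an exon length, the control level per kb of Plppr4 stood at percentile 98.6, that of Plppr2 at 97.9 and that of Plpp3 at 95.8, while Plppr1 stood at 55.2 and Plpp2 at 7.77.

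Summed per kb, the PLPP enzymes made up 20.5% ± 0.714 (SD, n = 6) of the family's RNA level in control and 19.4% ± 0.695 (SD, n = 5) in mimic. Plpp3 supplied most of that share, 16.1% of the family's level in control and 14.6% in mimic. When the length of the longest transcript was used in place of the merged exons, the control order stayed the same. Plppr1 was then at 8.29 ± 0.318 CPM per kb in control instead of 4.50, so its level depends on the length chosen. The percentiles above are for merged exons alone. In mimic, Plppr3 (48.0 ± 1.95 CPM per kb) and Plpp3 (46.3 ± 1.07) then changed places and overlapped, so the order of this pair depends on the length chosen.

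**Figure D3:**
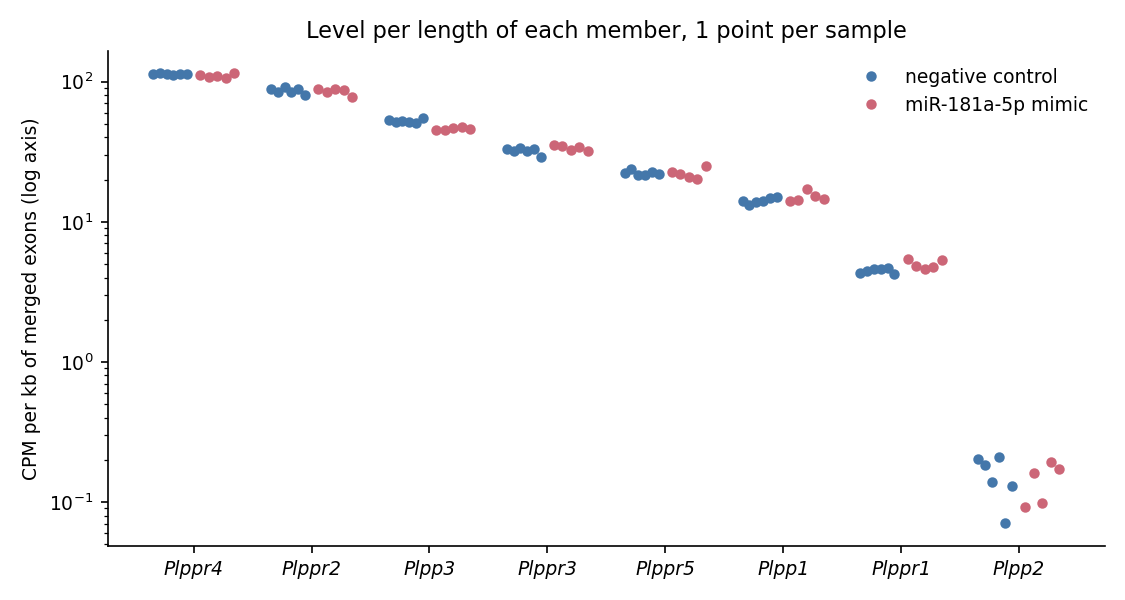
Level of each gene per kilobase of merged exon, in CPM per kb on a log axis, with 1 point per sample (blue control, red mimic) and the genes ordered by their control mean. The order runs from Plppr4 at 113.6 to Plpp2 at 0.156 CPM per kb in control and is the same in both groups.

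Plpp3 is known as a glial gene, and the cultures held astrocyte RNA. All 12 astrocyte markers fixed for the check were detected and tested. Their summed level was 5169 to 5611 CPM in control and 4745 to 5058 CPM in mimic, a mean 8.11% lower, with no overlap between the groups. Of the 12 markers 9 had a negative fold change, with a median of -0.10. By edgeR 2 were called lower and 0 higher, beside 1.77% and 1.08% of all genes tested. At an unadjusted p under 0.05 there were 7 lower and 1 higher, beside 8.41% and 7.3% of all genes. DESeq2 called 3 lower and 0 higher (2.31% and 1.45% of the genes it adjusted), and limma 2 lower and 0 higher (1.47% and 0.981% of its genes). Slc1a2, the main glutamate transporter of astrocytes and the marker with the most reads, had a control mean of 2398 ± 77.8 CPM (SD, n = 6) and a mimic mean of 2109 ± 49.1 (SD, n = 5). Its log2 fold change was -0.18 (edgeR adjusted p = 9.95e-05). Slc4a4, a bicarbonate transporter, had a log2 fold change of -0.11 (edgeR adjusted p = 0.012). The values of Slc1a3 (0.0012), Aldh1l1 (-0.0013) and Gja1 (0.05) were near 0, and none of these was called. The marker that was higher at an unadjusted p under 0.05 was Gjb6, with 10 to 24 counts per sample and a log2 fold change of 0.54 (edgeR adjusted p = 0.257).

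Relative to the astrocyte sum, Plpp3 stood at 3.12% ± 0.0587 (SD, n = 6) in control and 3.00% ± 0.0462 (SD, n = 5) in mimic. The ranges were 3.03% to 3.18% and 2.94% to 3.04%, and they overlap through control replicate 4 alone. The sum had means of 5313 CPM in control and 4882 in mimic, of which Slc1a2 alone supplied 2398 and 2109 CPM. Both the sum and the ratio therefore depend strongly on that gene. In bulk RNA, fewer cells of a type and less RNA per cell cannot be told apart. The part of the astrocyte markers in the lower Plpp3 level was not tested. The neuron markers summed to 6537 to 6668 CPM in control and 6332 to 6483 CPM in mimic, also without overlap, and the fibroblast markers to 246.6 to 381.5 and 394.7 to 529.3 CPM. Endothelial markers, of a second cell type known for Plpp3, were low in both groups at 33.2 to 41.3 and 34.1 to 43.4 CPM, and most of that sum was Kdr, with means of 34.8 ± 3.00 CPM in control (SD, n = 6) and 35.4 ± 3.56 in mimic (SD, n = 5). Cdh5, an adhesion protein of endothelial junctions, was the 1 endothelial marker called, from 1.77 ± 0.431 CPM (SD, n = 6) to 2.96 ± 0.580 (SD, n = 5), a log2 fold change of 0.77 (edgeR adjusted p = 0.0071), with all 5 mimic samples above every control sample. Cldn5 was at 0 in all 5 mimic samples and at most 1 count in a control sample.

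**Figure D4:**
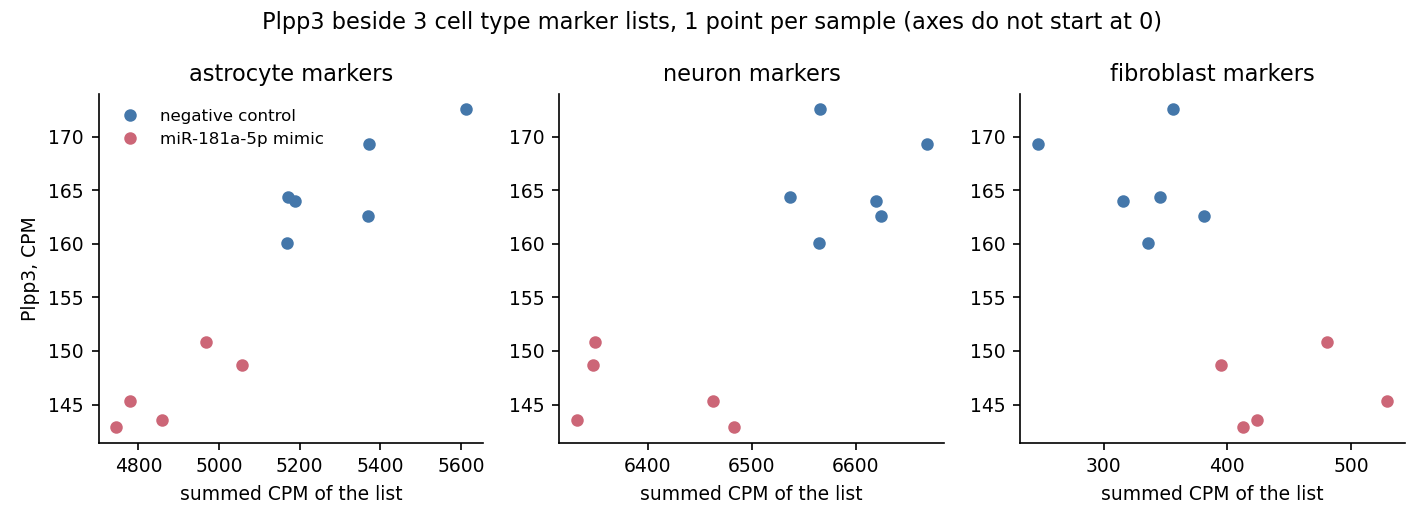
Plpp3 level in CPM against the summed CPM of the astrocyte, neuron and fibroblast marker lists, with 1 point per sample (blue control, red mimic). Mimic samples lie lower than control samples on the Plpp3 axis, to the left on the astrocyte and neuron axes and to the right on the fibroblast axis.

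Variation within the groups was compared through each sample's deviation from its own group mean, over the 11 samples. The 5 genes whose deviations were most like those of Plpp3, of 13927 others with a mean of at least 1 CPM, were Ubap1 (Pearson r 0.918), Dnaaf5 (0.901), Nmrk1 (0.898), Rassf2 (0.893) and Cubn (0.888). Of the astrocyte markers, Slc1a2 ranked 86 (0.789) and Aldoc 108 (0.774). The other family members were further down, with Plpp1 at rank 1449, Plppr2 at 8789, Plppr4 at 10403, Plppr5 at 11918, Plppr3 at 13334 and Plppr1 at 13800. These ranks are a description over 11 libraries, which differ in depth and in the marker sums given above. How high the top values would be among 13927 unrelated genes was not tested.

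Among the 7 members with a mean of at least 1 CPM, 21 pairs were compared by permutation within the groups, and none passed adjustment over the 21 pairs. The highest value was that of Plppr4 and Plppr5, which lie 214 kb apart on chromosome 3, with Pearson r 0.850 (permutation p = 0.0096, adjusted p = 0.103) and Spearman rho 0.855 (permutation p = 0.00871, adjusted p = 0.156). Without the 2 samples farthest from the median, r was 0.545, and in the 6 control samples alone it was 0.756. Plppr1 and Plpp3 had a negative value, with Pearson r -0.722 (permutation p = 0.0147, adjusted p = 0.103) and Spearman rho -0.727 (permutation p = 0.0193). For this pair r was -0.706 without the 2 farthest samples and -0.942 in the 6 control samples alone. Plppr2 and Plppr3 had Pearson r 0.725 (permutation p = 0.0148, adjusted p = 0.103) and Spearman rho 0.718 (permutation p = 0.0222). Here r was 0.296 without the 2 farthest samples but 0.957 in the 6 control samples alone. Which samples carry that relation was not tested.

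Genes around the same lipids, and other enzymes of the PAP2 superfamily, were followed next. Of 57 genes in 6 lists, 53 were tested, and edgeR called 2 lower and 0 higher, beside 1.77% and 1.08% of all genes tested. At an unadjusted p under 0.05 there were 9 lower and 3 higher of the 53, beside 8.41% and 7.3% of all genes. DESeq2 called 3 lower and 0 higher of 50, beside 2.31% and 1.45%, and limma called 2 lower and 0 higher of 52, beside 1.47% and 0.981%. The median log2 fold change was -0.03, with 32 values below 0 and 21 above.

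Both calls were diacylglycerol kinases, which make phosphatidic acid, the substrate of several phosphatases of this kind. Dgkg was at 82.98 to 92.7 CPM in control and 73.96 to 81.6 CPM in mimic, without overlap, a log2 fold change of -0.16 (95% interval -0.23 to -0.09, edgeR adjusted p = 0.0078). Dgkz was at 174.5 to 186.4 CPM in control and 152.5 to 169.2 CPM in mimic, also without overlap, a log2 fold change of -0.14 (95% interval -0.20 to -0.08, edgeR adjusted p = 0.00625). They belong to a list of 22 tested genes of phosphatidate turnover, of which 16 had a negative and 6 a positive value, with a median of -0.04.

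No gene of the other 5 lists was called by edgeR, DESeq2 or limma. Of the LPA receptors 4 were tested, and Lpar1, the one with the most reads, was not called. Its control mean was 4.71 ± 0.680 CPM (SD, n = 6) and its mimic mean 6.04 ± 0.869 (SD, n = 5), and the log2 fold change was 0.39 (95% interval 0.16 to 0.61, edgeR adjusted p = 0.0541). In the 4 fits where Lpar1 was called (no count filter, and without control replicate 2, control replicate 4 or mimic replicate 1) the values ran from 0.38 to 0.45. Lpar3 and Lpar5 had too few counts to be tested.

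Of the S1P receptors 4 were tested, and S1pr3, the one with the most reads, had a control mean of 57.4 ± 4.28 CPM (SD, n = 6) and a mimic mean of 57.0 ± 3.26 (SD, n = 5). S1pr3 had a log2 fold change of -0.00085 (95% interval -0.10 to 0.10). S1pr1, an astrocyte-rich receptor, had an uncalled value of -0.12 (edgeR adjusted p = 0.0944) and was called only without the count filter. At an unadjusted p under 0.05 the LPA receptors held Lpar1 alone and the S1P receptors S1pr1 alone.

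Upstream of the receptors, 7 genes of LPA production were tested, and Ddhd2, the one with the most reads, had a log2 fold change of 0.07 (edgeR adjusted p = 0.284). It was also the only one of them at an unadjusted p under 0.05. Of the 8 genes listed under S1P synthesis, breakdown and export, Spns2, the S1P exporter, had a value of -0.05 (edgeR adjusted p = 0.525). Of the 8 other enzymes of the PAP2 superfamily, Plpp5 had a value of 0.05 (edgeR adjusted p = 0.667). Neither of these last lists held a gene at an unadjusted p under 0.05.

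**Figure D5:**
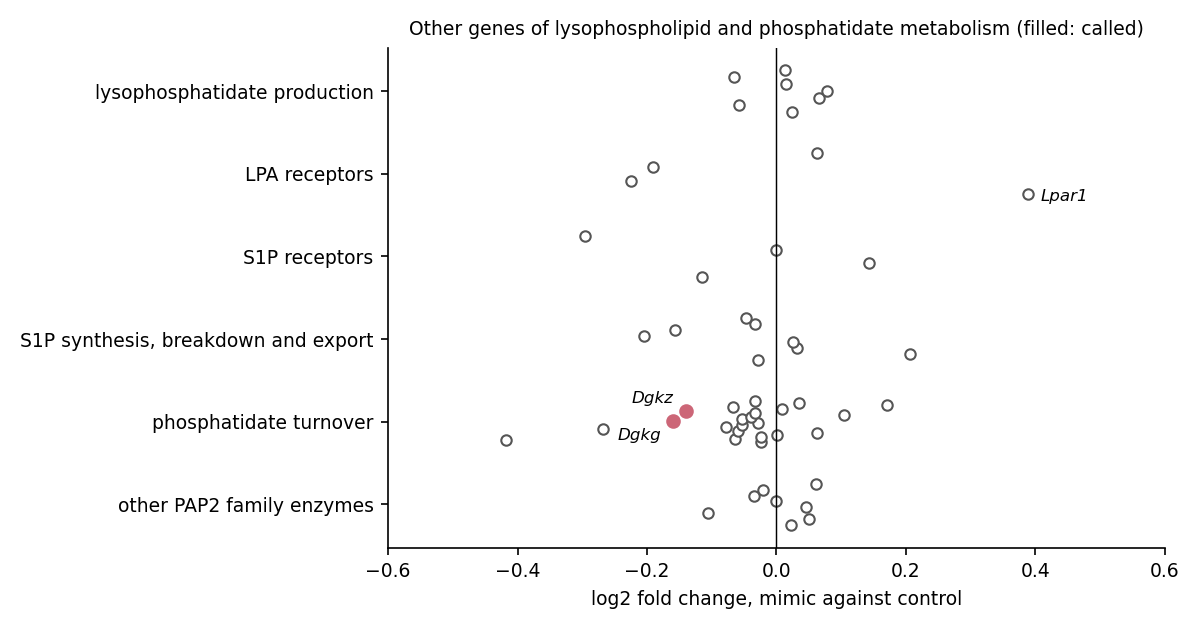
Log2 fold change, mimic against control, of the 53 tested genes in 6 lists around lysophospholipids, phosphatidate and the PAP2 superfamily. Each point is a gene, filled and named where called, and Lpar1 is named as well. Dgkg at -0.16 and Dgkz at -0.14 are the filled points, and Lpar1 lies apart on the right at 0.39.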

How the data were processed

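RNA was sequenced from 11 samples (6 control, 5 mimic), grouped by their GEO labels. The authors made poly(A) libraries, sequenced 50 bp single-end reads, checked them with FastQC 0.11.5, mapped them to mm10 with STAR 2.5.2b, counted reads per gene with featureCounts (Subread 1.5.1) and deposited raw counts per sample. Annotation release, strand and multimapping options are not given in the sources used here. They also deposited a normalized signal table, equal to the raw counts divided by 1 factor per sample, which was used for an alternative alone. Of 48709 genes, 48349 matched GENCODE M21.

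The 17365 genes that reached 5 counts in 50% of samples were tested by robust quasi-likelihood in edgeR 4.0.16 under R 4.3.3, with TMM scaling, group as the sole term, two-sided, with Benjamini-Hochberg adjustment over all genes at 0.05. P-values measure the spread between these samples. DESeq2 1.42.0, limma 3.58.1 on log2(value + 1) of the normalized table, other scalings, filters, left-out samples and a replicate block were alternatives. Same-numbered samples of the 2 groups showed no shared deviation (5 pairs, correlations -0.0232 to 0.0158), and the main fit did not pair them. Such correlations cannot exclude pairing that is weak or limited to some genes. No replicates agreed within sampling noise (lowest chi-square per degree of freedom 1.25). Limits from counts cover counting error only. Likeness used log2(CPM + 0.01), and pairs were permuted 100000 times within groups. The edgeR step was tested on simulated data.

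Members, lists and rules were chosen with earlier results of these data known. Named genes are the 8 members, called genes of the pathway lists or otherwise the gene of a list with the most reads, the marker with the most reads of each list, and the 5 genes most like Plpp3. The marker that this rule picks from the microglia list is not reported here. Cldn5, S1pr1, the called markers Cdh5, Nefm, Slc17a6 and Rgs5, the other astrocyte markers with values and the ratio of Plpp3 to the astrocyte sum were chosen after their values were seen.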

Additional observations from a re-analysis of the deposited data

How the results depend on the processing

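Of 151 recomputed fold changes of the 8 genes, 133 kept both direction and call, 13 kept their direction and lost the call (all Plppr1), and 5 turned their sign (Plppr2 and Plppr5). Plpp3 was called in 19 of 19 alternatives. Plppr1 was not called with at least 10 counts in every sample (0.1547), with limma on the normalized table (0.1535), without robust estimation (0.1563) and with the replicate block on numbers 1 to 5 (0.1447), each of which leaves 0 members called higher. Leaving out 1 sample gave 0.1271 to 0.1883 for Plppr1, 0 to 1 members called higher, -0.0269 to 0.0211 for Plppr2 and -0.0583 to 0.0194 for Plppr5. The cause was not tested.

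Over the whole table, 485 genes were called lower and 300 higher without a count filter, and the replicate block, which also drops control replicate 6, called 154 lower. Leaving out 1 sample gave 141 to 295 lower and 68 to 229 higher. The lowest counts came without control replicate 1, the deepest sample (150 lower, 68 higher), and without mimic replicate 2 (141 lower, 96 higher). The fits without control replicate 4 (199 lower), control replicate 6 (202 lower) and mimic replicate 4 (175 lower, 103 higher) also moved by over 1.5 times. Pathway genes called higher came to 1 without a count filter and to 0 to 1 with 1 sample left out, the gene being Lpar1. The blocked fit changed no other call of the family or pathway counts. The stricter filter removed Plpp2. Merged 3' UTRs gave the same number of 7-base seed matches per gene, and the 6-base matches were not compared there. Depth limits Plpp2 most.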

Other observations

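The marker lists not described above gave the following values. Over all genes tested, edgeR called 1.77% lower and 1.08% higher. At an unadjusted p under 0.05 these shares were 8.41% and 7.3%. For the genes adjusted by DESeq2 they were 2.31% and 1.45%, and for those of limma 1.47% and 0.981%. Map2, a dendritic protein and the neuron marker with the most reads, had a control mean of 2608 ± 26.8 CPM (SD, n = 6) and a mimic mean of 2527 ± 60.3 (SD, n = 5), and edgeR called 1 of 8 neuron markers lower and 0 higher (6 lower and 0 higher at an unadjusted p under 0.05). That marker was Nefm, a neurofilament protein, with a log2 fold change of -0.10 (edgeR adjusted p = 0.0353). DESeq2 also called 1 lower and 0 higher, and limma called 0 in either direction. Slc17a7, the vesicular glutamate transporter of hippocampal excitatory neurons, had a log2 fold change of -0.14 (edgeR adjusted p = 0.0239). In the same list of 5, Slc17a6, a second vesicular glutamate transporter, was called higher with a log2 fold change of 0.28 (edgeR adjusted p = 0.00052), and all 5 mimic samples lay above every control sample. DESeq2 and limma called both of them in the same directions. Rgs5, a pericyte gene, was the 1 of 5 tested pericyte and smooth muscle markers called lower, with a log2 fold change of -0.66 (edgeR adjusted p = 0.0226), and 0 were called higher (2 at an unadjusted p under 0.05, 1 with DESeq2, 1 with limma). Pdgfrb had the most reads of that list (log2 fold change 0.15). Of 4 tested endothelial markers 1 (Cdh5) was called higher and 0 lower (0 lower at an unadjusted p under 0.05, with DESeq2 and with limma), and Kdr had the most reads (0.04).

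No marker was called by edgeR in 5 lists: inhibitory neurons (5 tested, 1 lower at an unadjusted p under 0.05), neural progenitors (5 tested, 1 lower), oligodendrocyte lineage (8 tested, 3 lower), microglia (8 tested, 1 lower and 1 higher) and fibroblasts (6 tested, 5 higher). Over all genes, 8.41% were lower and 7.3% higher at that unadjusted p. DESeq2 called 1 oligodendrocyte marker lower and 3 fibroblast markers higher, beside 2.31% and 1.45% of the genes it adjusted. With limma, 5 fibroblast markers were called higher, beside 0.981% of its genes. Neither method called a gene of the other 3 lists. The markers with the most reads were Gad1 among inhibitory neuron markers (log2 fold change -0.02), Fabp7 among progenitor markers (-0.02), Olig1 in the oligodendrocyte lineage (-0.17) and Col3a1 among fibroblast markers (0.39).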
